A study of Mus musculus with 18 samples.

Results

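The genes described here are 10 of the growth hormone, STAT5 and IGF axis of the liver, Ghr, Stat5a, Stat5b, Igf1, Igfals, Socs2, Cish, Bcl6, Igfbp1 and Igfbp2, taken by symbol from the 55487 genes of the count table. Each was present in the table, and each passed the filter on low counts in all 3 comparisons. Their RNA was measured in the livers of 18 mice, 6 in each of 3 groups, each sequenced as its own library. All were male C57BL/6J mice that were bought at 7 weeks of age, acclimatized for 1 week and injected with an AAV8 vector 1 week before the diets began. The vector's TBG promoter drives expression in hepatocytes. CON-GFP mice received the GFP vector and the purified control diet, FPC-GFP mice received the GFP vector and the FPC diet, and FPC-LIPA mice received the vector with human LIPA, which encodes lysosomal acid lipase, and the FPC diet. The FPC diet is a high-fat diet with added fructose, palmitate and cholesterol, and it was given with fructose-glucose water. The diets lasted 16 weeks, and livers were taken following 4 h without food. Every group carried a virus, so an effect of the vector itself that the groups share is not seen in these comparisons.

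Growth hormone from the pituitary binds its receptor on hepatocytes, where the kinase JAK2 phosphorylates STAT5, and STAT5 then enters the nucleus and activates genes for secreted growth factors and for inhibitors of its own pathway. In male rodents the hormone arrives in pulses and in females more evenly, and the liver expresses many genes in a male-biased or a female-biased way because of this. Most circulating IGF1 comes from the liver and travels with a binding protein and the acid-labile subunit encoded by Igfals.

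The promoters of 9 of the 10 genes, 16 windows in all from 250 bases before to 50 bases after an annotated start, were read from RefSeq on GRCm38.p6. Socs2 was not matched. They were searched on both strands for TTCNNNGAA, the palindrome that STAT proteins recognise, and for CAAAACA, a core of the insulin response element. TTCNNNGAA was found in 5 windows of 3 genes, Cish, Bcl6 and Igfals, against 2726 of all 32851 promoter windows (8.30%). CAAAACA was found in 1 window, that of Igfbp1, against 2064 of all windows (6.28%). No match to the first motif overlapped one to the second. The windows of Ghr and Igf1, the genes with the largest falls on the diet, held neither motif, which says only that these letters are not in these windows. The windows printed here are shown because they hold a match. Capitals mark the motif letters, and each sequence runs from 5′ to 3′ on the strand of the gene.
Cish promoter: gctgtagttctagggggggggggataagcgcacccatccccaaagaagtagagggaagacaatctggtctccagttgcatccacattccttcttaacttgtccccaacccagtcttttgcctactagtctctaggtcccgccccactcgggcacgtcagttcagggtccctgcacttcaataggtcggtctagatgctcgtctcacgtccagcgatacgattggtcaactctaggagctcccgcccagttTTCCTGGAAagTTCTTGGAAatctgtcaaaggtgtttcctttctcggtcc
Bcl6 promoter of the inner start: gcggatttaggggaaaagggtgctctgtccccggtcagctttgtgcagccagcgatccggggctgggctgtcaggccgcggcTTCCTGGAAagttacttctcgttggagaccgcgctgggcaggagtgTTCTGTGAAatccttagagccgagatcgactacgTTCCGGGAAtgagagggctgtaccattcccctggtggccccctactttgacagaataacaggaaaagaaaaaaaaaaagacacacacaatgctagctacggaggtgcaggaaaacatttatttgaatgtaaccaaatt
Igfals promoter of the first start: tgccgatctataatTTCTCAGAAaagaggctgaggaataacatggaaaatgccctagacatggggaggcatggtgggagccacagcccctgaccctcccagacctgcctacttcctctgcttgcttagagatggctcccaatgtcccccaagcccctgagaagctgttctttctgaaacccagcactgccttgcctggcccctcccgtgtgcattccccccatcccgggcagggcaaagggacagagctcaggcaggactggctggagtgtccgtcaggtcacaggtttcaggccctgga
Igfals promoter of the next start: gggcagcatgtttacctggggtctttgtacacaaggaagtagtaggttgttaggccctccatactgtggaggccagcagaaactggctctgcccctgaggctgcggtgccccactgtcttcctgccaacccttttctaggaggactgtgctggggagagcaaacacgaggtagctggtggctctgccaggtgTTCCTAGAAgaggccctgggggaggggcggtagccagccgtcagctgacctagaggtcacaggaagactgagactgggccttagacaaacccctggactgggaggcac
Igfbp1 promoter: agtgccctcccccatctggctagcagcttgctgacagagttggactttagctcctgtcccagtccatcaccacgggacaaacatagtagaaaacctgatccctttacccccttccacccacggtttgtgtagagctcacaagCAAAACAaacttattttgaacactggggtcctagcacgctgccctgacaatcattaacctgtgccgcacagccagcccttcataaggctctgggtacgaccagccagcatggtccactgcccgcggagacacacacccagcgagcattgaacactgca
The Cish window is chr9:107296409-107296708 on the plus strand, with matches whose first bases are the bases at 1 and 12 counted from the start site. At least 2 matches were found in 150 of all windows (0.457%). The Bcl6 window is chr16:23981234-23981533 on the minus strand, with matches that begin at -168, -122 and -88, and at least 3 matches were found in 11 of all windows (0.0335%). Another Bcl6 window, chr16:23988803-23989102 on the minus strand, held 1 match that begins at -118. The Igfals windows are chr17:24877594-24877893 and chr17:24877981-24878280 on the plus strand, with 1 match each at -236 and -58. The Igfbp1 window is chr11:7197537-7197836 on the plus strand, with CAAAACA at -108. A match describes the letters of a window and does not show a bound site.

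Total counts per library lay between 16632146 and 37739301, and the libraries with the lowest totals were CON-GFP 2, FPC-GFP 20 and FPC-LIPA 37. Hepatocyte markers took from 4.81% to 9.36% of the counts in every library. In FPC-LIPA 36, 37 and 39, cytosolic ribosomal protein genes took 6.58%, 8.21% and 8.29% of the counts, against 2.19% to 2.99% in the other FPC-LIPA libraries, 1.46% to 1.82% in FPC-GFP and 1.77% to 2.58% in CON-GFP. The labels do not set these 3 apart as a set. Without them, 1.22% of all tested genes were called between the FPC groups, in a fit of 9 libraries, and values without them are given beside the genes and lists below. The mouse Lipa row did not differ between FPC-LIPA and FPC-GFP (log2 fold change -0.16, SE 0.18, adjusted p = 0.513 in edgeR's quasi-likelihood test), but the vector carries the human gene, so this row does not check the transgene. Levels are CPM, the counts of a gene scaled to a common library total by TMM, and changes are log2 fold changes from edgeR's quasi-likelihood test on the raw counts, with adjusted p over all tested genes.

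On the FPC diet with the GFP vector, Ghr, Igf1, Igfals and Igfbp1 fell, and no gene of the 10 rose. Ghr was at 48.1% and Igf1 at 42.8% of the CON-GFP level. The count of 4 of 10 genes lower at an adjusted p under 0.05 is read against 10.9% of the 14307 genes tested that were lower by that rule, with 12.9% higher and 23.8% in either direction. Ghr and Igf1 also changed at least 2-fold, as 2.44% of all tested genes did downward, and in these 2 genes alone the FPC-GFP mice did not overlap the CON-GFP mice, as 4.82% of all tested genes did with FPC-GFP lower. The median log2 fold change of the 10 genes was -0.14, beside 0.01 over all tested genes. Liver RNA was measured in bulk, so fewer cells of a type and less RNA per cell cannot be told apart.

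FPC-LIPA against FPC-GFP showed no gene of the 10 past the threshold in edgeR's quasi-likelihood test, while 21.2% of the 14620 genes tested passed it, 14.4% upward and 6.87% downward. By the DESeq2 Wald test the count was also 0, and 1 gene, Igfals, had an unadjusted p under 0.05. None of the 10 was at least 2-fold changed and past the threshold, against 11.4% of all tested genes, and none had groups that did not overlap, against 7.66%. The median log2 fold change was -0.35 over the 10 genes and 0.04 over all. In FPC-LIPA against CON-GFP, Igf1 and Igfals fell, 2 of 10 genes against 8.20% of the 14433 tested that were lower, 14.7% that were higher and 22.9% in either direction. Both changed at least 2-fold, as 3.25% of all tested genes did downward, and both had groups that did not overlap, as 5.56% did with FPC-LIPA lower. The 3 comparisons share groups, so their values stand side by side and are not independent of each other.

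**Figure D1:**
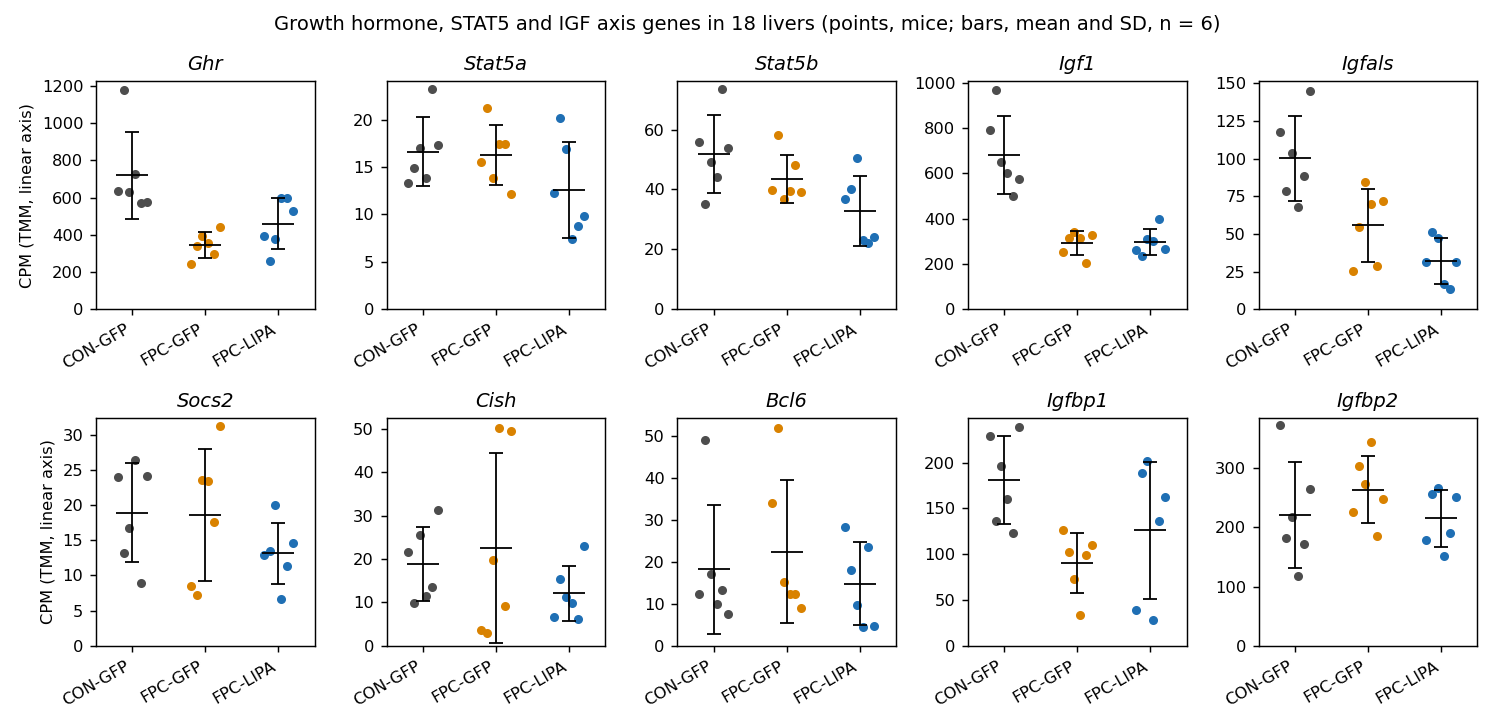
Level of each of the 10 genes in every liver, in TMM-scaled CPM on a linear axis that starts at 0, with 1 point per mouse and bars for the mean and SD (n = 6). For Ghr and Igf1 every FPC-GFP mouse lies below every CON-GFP mouse, and for Cish the FPC-GFP mice spread from 3.02 to 50.04 CPM.

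Ghr encodes the growth hormone receptor (ENSMUSG00000055737, chr15:3317760-3583492, minus strand, GRCm38). Its level was 569 CPM in the lowest, 632 in the median and 1179 in the highest CON-GFP mouse, 244, 346 and 442 CPM in FPC-GFP, and 260, 460 and 598 CPM in FPC-LIPA. The highest FPC-GFP mouse was below the lowest CON-GFP mouse, whereas FPC-LIPA overlapped both other groups. The fall on the diet was 1.06 on the log2 scale (FPC-GFP against CON-GFP -1.06, SE 0.20, adjusted p = 0.00232 in edgeR's quasi-likelihood test), from 719 ± 232 to 345 ± 70.0 CPM (SD, n = 6). CON-GFP 2 stood apart at 1179 CPM from the other CON-GFP mice, which had at most 726.

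The FPC-LIPA mice were not of one kind for Ghr. FPC-LIPA 36, 37 and 39, with the high ribosomal share, had 598, 596 and 530 CPM, and FPC-LIPA 31, 33 and 34 had 390, 260 and 376. The former lay above every FPC-GFP mouse and the latter within the FPC-GFP range. With all 6 mice, FPC-LIPA was 0.48 above FPC-GFP (SE 0.24, adjusted p = 0.151) and 0.61 below CON-GFP on the log2 scale (-0.61, SE 0.26, adjusted p = 0.0981), and neither passed edgeR's quasi-likelihood test. Without FPC-LIPA 36, 37 and 39 the difference from FPC-GFP was -0.01 (SE 0.20, adjusted p = 0.989) and Ghr fell by 1.06 from CON-GFP (SE 0.26, adjusted p = 0.0133). The part of whatever raised the ribosomal share in these levels was not tested.

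**Figure D2:**
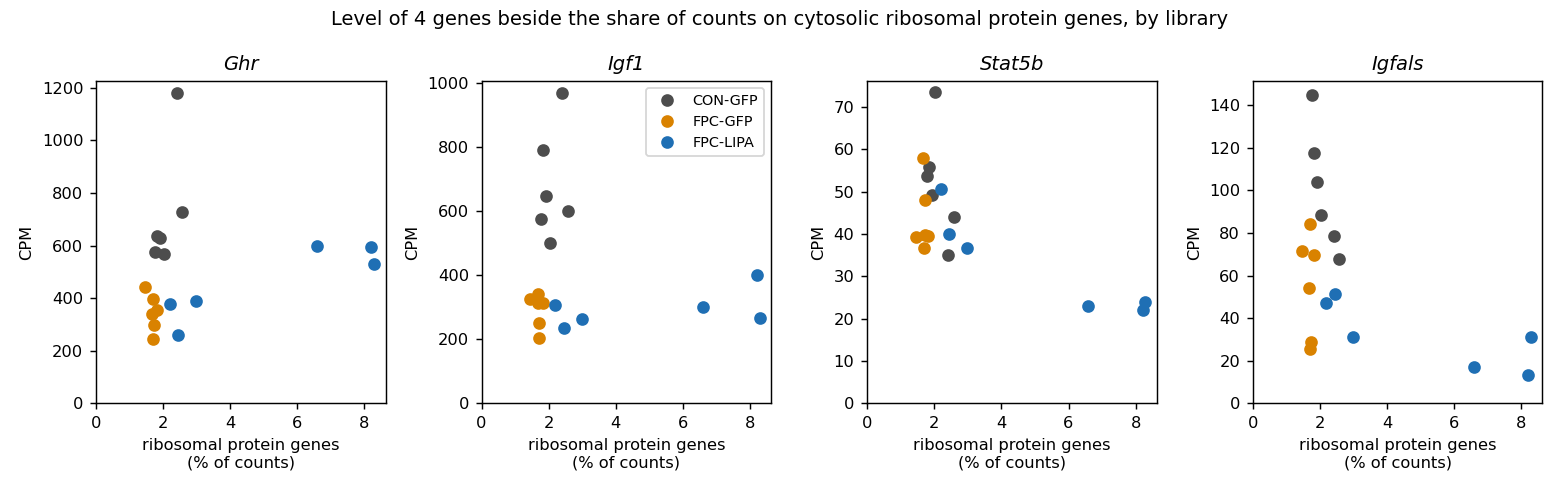
TMM-scaled CPM of Ghr, Igf1, Stat5b and Igfals (y, linear axes from 0) against the share of each library's counts on cytosolic ribosomal protein genes (x, percent), 1 point per mouse, coloured by group. FPC-LIPA 36, 37 and 39 lie at 6.58% to 8.29%, with Ghr at 530 to 598 CPM and Stat5b at 22.0 to 24.0 CPM.

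Stat5a and Stat5b encode the near-identical transcription factors that carry the receptor's signal. Their genes neighbour each other at chr11:100859351-100885169 on the plus strand (Stat5a, ENSMUSG00000004043) and chr11:100780731-100850724 on the minus strand (Stat5b, ENSMUSG00000020919), and reads that both could hold make the split between them uncertain. Per kilobase of exon, Stat5b was the more abundant of the pair, with 9.37 ± 2.34 CPM per kb against 2.33 ± 0.511 in CON-GFP (SD, n = 6).

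Stat5b lay at 35.1, 51.5 and 73.6 CPM in the lowest, median and highest CON-GFP mouse, at 36.7, 39.6 and 58.03 in FPC-GFP and at 22.0, 30.4 and 50.6 in FPC-LIPA. The groups overlapped, but FPC-LIPA 36, 37 and 39, at 22.9, 22.0 and 24.0 CPM, were below all other 15 mice. The log2 fold change of Stat5b was -0.25 on the diet (SE 0.16, adjusted p = 0.264), -0.37 with LIPA on the FPC diet (SE 0.21, adjusted p = 0.199) and -0.63 for FPC-LIPA against CON-GFP (SE 0.23, adjusted p = 0.0617), none past edgeR's quasi-likelihood test. Without those 3 libraries, FPC-LIPA differed from FPC-GFP by -0.02 (SE 0.17) and from CON-GFP by -0.27 (SE 0.20). For FPC-LIPA against CON-GFP, Stat5b passed in 5 of 22 alternatives, some of which leave out libraries. It passed in the DESeq2 Wald test (adjusted p = 0.0312) and the edgeR fit of all 18 libraries (adjusted p = 0.0272). The other passes were in the edgeR fits without CON-GFP 2, FPC-LIPA 33 or FPC-LIPA 34.

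Stat5a was lower in level, at 13.3 to 23.3 CPM in CON-GFP (median 16.0), 12.2 to 21.3 in FPC-GFP (median 16.5) and 7.37 to 20.2 in FPC-LIPA (median 11.1). The lowest values of the 18 were again those of FPC-LIPA 36, 37 and 39, at 7.37, 8.76 and 9.85 CPM. Its log2 fold changes were -0.03, -0.32 and -0.36 in the 3 comparisons, with adjusted p between 0.285 and 0.913 in edgeR's quasi-likelihood test. The last 2 were 0.04 (SE 0.19) and 0.01 (SE 0.20) without those 3 mice. Stat5a overlaps Stat3 on the opposite strand, which had 75.1 CPM on average against 15.2 for Stat5a, and the strand setting of the counting is not stated, so reads of the pair cannot be told apart where they overlap.

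Igf1 encodes insulin-like growth factor 1, the hormone's main secreted product from the liver (ENSMUSG00000020053, chr10:87858265-87937042, plus strand). It was measured at 501, 625 and 969 CPM in the lowest, median and highest CON-GFP mouse, at 203, 314 and 341 in FPC-GFP and at 236, 285 and 400 in FPC-LIPA. Every mouse on the FPC diet, with either vector, was below every CON-GFP mouse, and the FPC groups overlapped each other. Igf1 fell by 1.22 on the log2 scale on the diet (SE 0.18, adjusted p = 0.000471) and fell by 1.17 in FPC-LIPA against CON-GFP (SE 0.22, adjusted p = 0.00183) in edgeR's quasi-likelihood test. Mean levels were 682 ± 171, 291 ± 53.2 and 296 ± 57.4 CPM (SD, n = 6). FPC-LIPA differed from FPC-GFP by 0.09 (SE 0.20, adjusted p = 0.755). That difference was -0.10 (SE 0.18) without the 3 libraries with a high ribosomal share, and Igf1 then fell by 1.32 from CON-GFP (SE 0.22, adjusted p = 0.00175). The antisense gene Igf1os had 1.43 CPM on average against 423 for Igf1.

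Igfals encodes the acid-labile subunit, which holds IGF1 in a long-lived complex in blood (ENSMUSG00000046070, chr17:24865997-24882010, plus strand). Its level was 67.99, 96.1 and 145 CPM in the lowest, median and highest CON-GFP mouse, 25.3, 61.95 and 84.2 in FPC-GFP and 13.1, 31.2 and 51.4 in FPC-LIPA. FPC-GFP reached into the CON-GFP range with 3 mice, FPC-GFP 13, 16 and 20, and no FPC-LIPA mouse did. Igfals fell by 0.84 on the diet (SE 0.28, adjusted p = 0.0387) and fell by 1.62 in FPC-LIPA against CON-GFP (SE 0.31, adjusted p = 0.0023) in edgeR's quasi-likelihood test. The diet call was near the threshold and was lost in 9 of 21 alternatives, with adjusted p up to 0.114, whereas the call against CON-GFP in FPC-LIPA held in all 22.

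FPC-LIPA against FPC-GFP gave -0.77 for Igfals (SE 0.35, adjusted p = 0.118). The mice lowest for Igfals in FPC-LIPA were 37 and 36, at 13.1 and 17.0 CPM, while FPC-LIPA 39 and 31 stood level at 31.1 and 31.2. Without FPC-LIPA 36, 37 and 39 the difference was -0.35 (SE 0.35, adjusted p = 0.628), and against CON-GFP Igfals still fell by 1.19 (SE 0.25, adjusted p = 0.0057). The calls also differed in the fit without FPC-LIPA 33. There, Igfals passed at -0.95 (adjusted p = 0.0463) and Ghr at 0.60 (adjusted p = 0.0431) in edgeR's quasi-likelihood test of FPC-LIPA against FPC-GFP. That fit called 38.0% of all tested genes, against 21.2% with all mice.

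**Figure D3:**
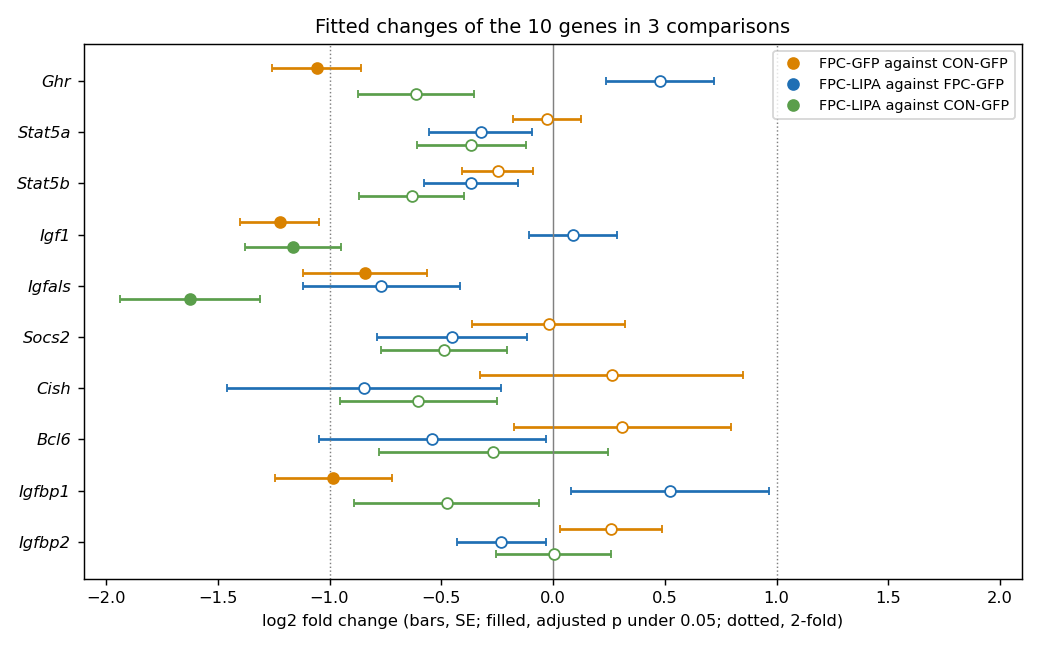
Log2 fold change of each gene (points, with SE as bars) in FPC-GFP against CON-GFP, FPC-LIPA against FPC-GFP and FPC-LIPA against CON-GFP, where filled points have an adjusted p under 0.05 in edgeR's quasi-likelihood test and dotted lines mark 2-fold. Filled points are those of Ghr, Igf1, Igfals and Igfbp1 on the diet and of Igf1 and Igfals in FPC-LIPA against CON-GFP, all below 0.

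Socs2 and Cish encode SOCS-family proteins that STAT5 induces and that restrain the receptor's signalling. Socs2 (ENSMUSG00000020027, chr10:95385362-95417180, minus strand) lay at 8.91, 20.4 and 26.4 CPM in the lowest, median and highest CON-GFP mouse, at 7.25, 20.5 and 31.2 in FPC-GFP and at 6.73, 13.1 and 20.0 in FPC-LIPA. The groups overlapped. Its log2 fold changes were -0.02 on the diet (SE 0.34, adjusted p = 0.971), -0.45 for FPC-LIPA against FPC-GFP (SE 0.34, adjusted p = 0.323) and -0.49 against CON-GFP (SE 0.28, adjusted p = 0.214) in edgeR's quasi-likelihood test. The last 2 became -0.27 (SE 0.40) and -0.28 (SE 0.31) without the 3 libraries with a high ribosomal share.

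Cish (ENSMUSG00000032578, chr9:107296026-107302784, plus strand) was the most variable of the 10 genes in FPC-GFP, with a coefficient of variation of 97.3%. In CON-GFP and FPC-LIPA it was 45.5% and 52.3%, below the 84.5% and 67.2% of Bcl6. It had 9.86, 17.6 and 31.2 CPM in the lowest, median and highest CON-GFP mouse, 3.02, 14.5 and 50.04 in FPC-GFP and 6.10, 10.6 and 22.9 in FPC-LIPA. The FPC-GFP mice spanned 16.6-fold, from FPC-GFP 12 and 11 at 3.02 and 3.67 CPM, the lowest of all 18, to FPC-GFP 20 and 16 at 49.5 and 50.04 CPM, the highest of all. The comparison of means has little precision beside this spread, with log2 fold changes of 0.26 on the diet (SE 0.59, adjusted p = 0.770), -0.85 for FPC-LIPA against FPC-GFP (SE 0.61, adjusted p = 0.31) and -0.60 against CON-GFP (SE 0.35, adjusted p = 0.218) in edgeR's quasi-likelihood test. Leaving out the 3 libraries with a high ribosomal share gave -1.005 (SE 0.80) and -0.73 (SE 0.37) for FPC-LIPA.

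Bcl6 encodes a transcriptional repressor that binds many of the same liver sites as STAT5 and whose RNA growth hormone lowers (ENSMUSG00000022508, chr16:23965052-23988852, minus strand). It was at 7.65, 12.8 and 49.0 CPM in the lowest, median and highest CON-GFP mouse, at 8.96, 13.8 and 51.9 in FPC-GFP and at 4.61, 13.9 and 28.2 in FPC-LIPA. The 3 highest mice were FPC-GFP 12 (51.9 CPM), CON-GFP 2 (49.0) and FPC-GFP 11 (34.0), so the extremes came from both diets. Neither diet nor LIPA gave a change past edgeR's quasi-likelihood test, with log2 fold changes of 0.31 (SE 0.49), -0.54 (SE 0.51) and -0.27 (SE 0.51) in the 3 comparisons and adjusted p from 0.439 to 0.726. The last 2 were -0.24 (SE 0.51) and 0.06 (SE 0.51) without FPC-LIPA 36, 37 and 39.

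**Figure D4:**
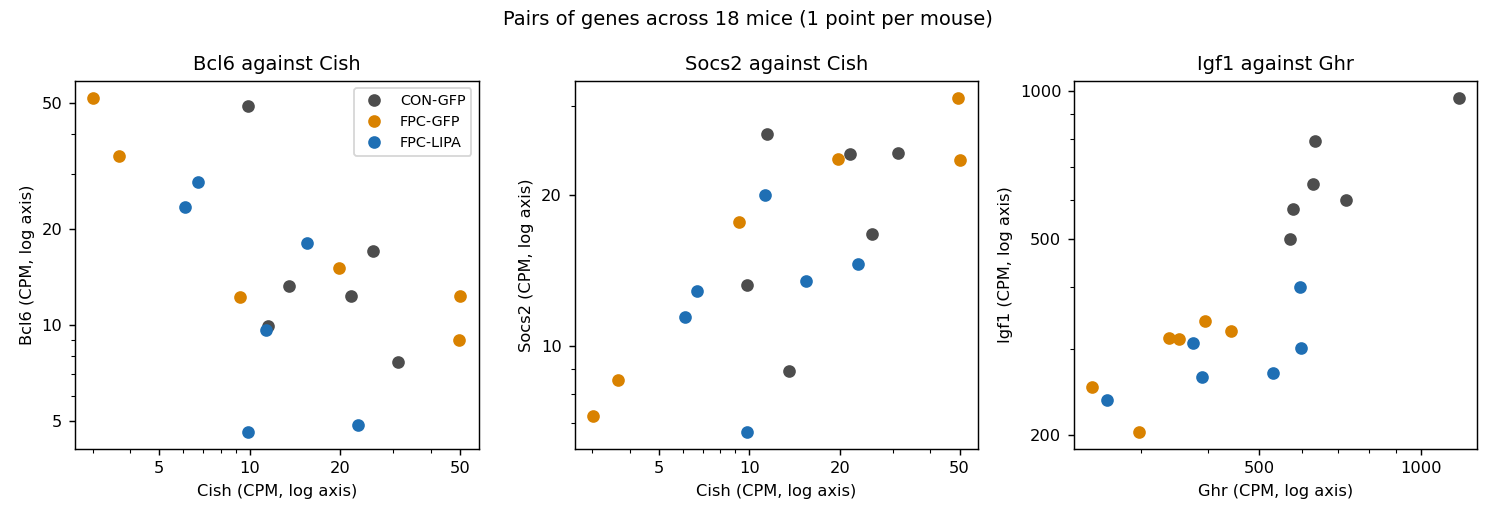
Levels of 3 pairs of genes in the 18 livers, in TMM-scaled CPM on log axes, 1 point per mouse and coloured by group. Bcl6 is high where Cish is low (FPC-GFP 11 and 12 at the upper left), and Igf1 is high where Ghr is high, with CON-GFP 2 the highest for both.

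Since mice of a group differed this much, the 45 pairs among the 10 genes were compared across the 18 mice after each group's mean of log2 CPM was subtracted, with 100000 permutations within groups. Of these, 7 pairs had a Benjamini-Hochberg adjusted permutation p under 0.05 for Pearson's r, and 6 of them also for Spearman's rho. The values measure how mice of the same group varied together, and the libraries' shared scaling and the high ribosomal share of FPC-LIPA 36, 37 and 39 enter them too.

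Cish and Bcl6 were opposed, with r = -0.67 (permutation p = 0.00202, adjusted 0.0227) and rho = -0.65 (permutation p = 0.00537, adjusted 0.0403). The sign was the same within CON-GFP (r = -0.56), FPC-GFP (r = -0.89) and FPC-LIPA (r = -0.63). Without the 2 mice farthest from the median of Cish r was -0.61, and among the 14 libraries with sample sheet numbers from 55 to 68 it was -0.60. Socs2 and Cish went together at r = 0.72 (permutation p = 0.00559, adjusted 0.0359), with 0.66 without the 2 mice farthest for Socs2 and 0.65 in the 14 libraries. For this pair rho was 0.66 and its adjusted permutation p was 0.0658, and r was 0.95 in FPC-GFP but 0.40 in CON-GFP and 0.29 in FPC-LIPA.

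Ghr and Igf1 varied together from mouse to mouse, with r = 0.72 (permutation p = 0.00128, adjusted 0.0192) and rho = 0.74 (permutation p = 0.00089, adjusted 0.0159). Their r was 0.81 in CON-GFP, 0.73 in FPC-GFP and 0.68 in FPC-LIPA, 0.60 without the farthest 2 mice and 0.56 in the 14 libraries. Igfals went with Igfbp2 at r = 0.66 (permutation p = 0.00097, adjusted 0.0192; rho = 0.71, permutation p = 0.00141, adjusted 0.0159), with 0.73 without the farthest 2 mice and 0.81 in the 14 libraries.

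The other pairs involve the STAT5 genes. Stat5a and Stat5b had r = 0.83 (permutation p = 0.00041, adjusted 0.0184) and rho = 0.80 (permutation p = 0.0011, adjusted 0.0159). The part of reads shared by these paralogs in this value was not tested. For this pair r was 0.83 without the farthest 2 mice and 0.90 in the 14 libraries. Ghr was opposed to Stat5b, with r = -0.74 (permutation p = 0.00313, adjusted 0.025; rho = -0.82, permutation p = 0.00065, adjusted 0.0159), at -0.86 in CON-GFP, -0.22 in FPC-GFP and -0.83 in FPC-LIPA. Without the farthest 2 mice r was -0.68, and it was -0.63 in the 14 libraries. Ghr was opposed to Stat5a as well, with r = -0.72 (permutation p = 0.00333, adjusted 0.025; rho = -0.75, permutation p = 0.0023, adjusted 0.0207), at -0.71 without the farthest 2 mice and -0.78 in the 14 libraries. Within groups r for Ghr with Stat5a was -0.44 in CON-GFP, -0.45 in FPC-GFP and -0.96 in FPC-LIPA.

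In the 15 mice without FPC-LIPA 36, 37 and 39, r was -0.72 for Cish with Bcl6, 0.78 for Socs2 with Cish, 0.77 for Ghr with Igf1 and 0.68 for Igfals with Igfbp2. The pairs with a STAT5 gene were nearer 0, at 0.66 for Stat5a with Stat5b, -0.53 for Ghr with Stat5b and -0.51 for Ghr with Stat5a, each for n = 15.

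Igfbp1 and Igfbp2 encode binding proteins for IGF1 in blood, and insulin is known to lower Igfbp1. Igfbp1 (ENSMUSG00000020429, chr11:7197782-7202546, plus strand) had 124, 178 and 239 CPM in the lowest, median and highest CON-GFP mouse, 33.7, 101 and 126 in FPC-GFP and 28.2, 149 and 201 in FPC-LIPA. FPC-GFP met CON-GFP only at its highest mouse, FPC-GFP 11 at 126 CPM, just above the lowest CON-GFP mouse. Igfbp1 fell by 0.98 on the diet (SE 0.26, adjusted p = 0.0146 in edgeR's quasi-likelihood test), and this call was lost when all 18 libraries shared one fit (adjusted p = 0.138).

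The FPC-LIPA mice ran from low to high for Igfbp1 with none between, FPC-LIPA 36 and 31 at 28.2 and 38.7 CPM and the other 4 at 136 to 201. Of the mice with a high ribosomal share, FPC-LIPA 36 was the lowest and FPC-LIPA 37 and 39 were at 136 and 162 CPM. FPC-LIPA differed from FPC-GFP by 0.52 (SE 0.44, adjusted p = 0.387) and from CON-GFP by -0.48 (SE 0.41, adjusted p = 0.411) in edgeR's quasi-likelihood test. These were 0.66 (SE 0.45) and -0.31 (SE 0.40) without the 3 libraries with a high ribosomal share.

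Igfbp2 (ENSMUSG00000039323, chr1:72824503-72852474, plus strand) was at 117, 200 and 373 CPM in the lowest, median and highest CON-GFP mouse, at 186, 261 and 345 in FPC-GFP and at 151, 222 and 267 in FPC-LIPA. The groups overlapped. Its log2 fold changes of 0.26 (SE 0.23), -0.23 (SE 0.20) and 0.00 (SE 0.26) had adjusted p from 0.393 to 0.996 in edgeR's quasi-likelihood test. Dropping FPC-LIPA 36, 37 and 39 gave -0.16 (SE 0.19) and 0.10 (SE 0.29) for the last 2.

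Per kilobase of exon, the order of the 10 genes was the same in CON-GFP and FPC-GFP, Igfbp2 before Igfbp1, Ghr, Igf1, Igfals, Stat5b, Cish, Bcl6, Stat5a and Socs2, and in FPC-LIPA Bcl6 came before Cish. In CON-GFP, Igfbp2 and Igfbp1, at 120 ± 48.1 and 118 ± 31.5 CPM per kb (SD, n = 6), did not differ beyond their spread, nor did Ghr and Igf1 at 79.4 ± 25.6 and 68.8 ± 17.3. In FPC-GFP, Igfbp2 at 143 ± 30.6 CPM per kb stood above Igfbp1 at 59.5 ± 21.6, and Ghr and Igf1 were at 38.1 ± 7.73 and 29.4 ± 5.37. Cish, Bcl6, Stat5a and Socs2 lay between 1.95 and 3.51 CPM per kb in both groups, within their spread of each other.

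The fits restricted to the 14 libraries with sample sheet numbers from 55 to 68, a number in the labels, kept most calls. Ghr fell by 0.94 on the diet (adjusted p = 0.0028), Igf1 fell by 1.03 (adjusted p = 0.00251) and Igfbp1 fell by 1.05 (adjusted p = 0.0445), while Igfals gave -0.95 with adjusted p = 0.0785. In FPC-LIPA against CON-GFP, Igf1 fell by 1.05 (adjusted p = 0.00599) and Igfals fell by 1.48 (adjusted p = 0.0149). The other 4 libraries are too few for a fit of their own.

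Genes whose level over the 18 livers was most like that of a called gene were ranked by Pearson's r of log2 CPM among 12735 genes with a mean of at least 1 CPM, as a description. Ghr was most like Ugt2a3 (r = 0.95), Zmym5 (0.93) and Gm20319 (0.93), and Igf1 was most like Nnmt (0.92), Marchf6 (0.91) and Kmo (0.91). Igfals was most like Igfbp4 (0.96), which encodes another IGF binding protein, then Acy1 (0.94) and Gpt (0.94). Igfbp1 was most like Irf2bp2 (0.86), Cry1 (0.84) and Dusp1 (0.82). These values share the libraries and the groups' differences.

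Of 17 other genes of the IGF system, 10 could be tested. On the diet 2 rose and 2 fell, where 23.8% of all tested genes were called, 1 rose in FPC-LIPA against FPC-GFP, where 21.2% were, and 2 rose and 2 fell in FPC-LIPA against CON-GFP, where 22.9% were. Igfbp4 had 1401 ± 272 CPM in CON-GFP, 997 ± 199 in FPC-GFP and 651 ± 163 in FPC-LIPA (SD, n = 6). It fell by 0.48 on the diet (SE 0.16, adjusted p = 0.0388) and fell by 1.07 in FPC-LIPA against CON-GFP (SE 0.22, adjusted p = 0.00308) in edgeR's quasi-likelihood test, with -0.57 between the FPC groups (adjusted p = 0.0598). Insr, the insulin receptor, fell by 0.34 on the diet (SE 0.11, adjusted p = 0.0394) and fell by 0.66 in FPC-LIPA against CON-GFP (SE 0.15, adjusted p = 0.00693). Igf2bp2, an RNA-binding protein of IGF2 mRNA, rose by 1.34 on the diet (SE 0.42, adjusted p = 0.0317), from 1.90 ± 0.624 to 4.76 ± 3.93 CPM (SD, n = 6). Its FPC-GFP mice were spread from 1.80 to 12.3 CPM and overlapped the CON-GFP mice at 0.872 to 2.80. Igfbp6 rose by 1.61 in FPC-LIPA against FPC-GFP from 0.863 to 2.57 CPM (SE 0.46, adjusted p = 0.0287). Htra1, a protease, rose by 1.21 in FPC-LIPA against CON-GFP from 1.06 to 2.42 CPM (SE 0.34, adjusted p = 0.0188 in edgeR's quasi-likelihood test). Igf2 and Pappa2 were at 0 counts in every library. All 4 diet calls were lost in the fit of all 18 libraries and among the 14 libraries, and the call of Igfbp6 was lost without FPC-LIPA 36, 37 and 39. The fit of all 18 libraries called 9.04% of all tested genes on the diet. With library size alone, 4 of the 10 tested rose and none fell on the diet, where 28.5% of all tested genes were called. Without FPC-LIPA 36, 37 and 39, 5 of 11 genes of the list rose and 2 fell in FPC-LIPA against CON-GFP, where 18.0% of all tested genes were called.

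Of 28 genes of growth hormone and JAK-STAT signalling beyond the 10, 27 were tested on the diet, where 2 rose and 1 fell, and 28 in the other comparisons, where 4 fell with LIPA on the FPC diet and 2 rose and 3 fell in FPC-LIPA against CON-GFP. Over all tested genes 23.8% were called on the diet, 6.87% were lower with LIPA, and 22.9% were called in FPC-LIPA against CON-GFP. Ptpn6, a phosphatase that acts on JAK-STAT signalling and is abundant in leukocytes, rose by 0.51 on the diet (SE 0.12, adjusted p = 0.00661), and Ptpn2, another such phosphatase, fell by 0.33 (SE 0.11, adjusted p = 0.0449) in edgeR's quasi-likelihood test. Stat3 fell by 0.88 in FPC-LIPA against FPC-GFP (SE 0.25, adjusted p = 0.0291), from 89.6 ± 31.3 to 47.2 ± 15.9 CPM (SD, n = 6), with the limit on strand given for Stat5a. Ptpn11, the phosphatase SHP2, fell by 0.77 there (SE 0.19, adjusted p = 0.0198). Socs7 fell by 0.92 (SE 0.28, adjusted p = 0.0281) and Irs1, an adaptor of the insulin and IGF1 receptors, fell by 0.89 (SE 0.24, adjusted p = 0.0162) in FPC-LIPA against CON-GFP. All 3 diet calls of the list were lost with all 18 libraries in one fit. With library size alone, 9 of the 27 rose and none fell on the diet, where 28.5% of all tested genes were called. Jak1, with 71.5, 83.0 and 68.2 CPM in the 3 groups in order, passed in no comparison. Without FPC-LIPA 36, 37 and 39, and among the 14 libraries, none of these genes was called lower in FPC-LIPA against either group. Against FPC-GFP these fits called 1.22% and 0.706% of all tested genes, and against CON-GFP 18.0% and 9.40%.

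Male-biased liver genes, which pulses of growth hormone are known to maintain, formed the next list. Of 21 listed, 20 were tested, and 10 fell and none rose on the diet, with a median log2 fold change of -1.10 beside 0.01 over all genes. FPC-LIPA against FPC-GFP had 11 lower and 1 higher, with a median of -0.98 beside 0.04, and FPC-LIPA against CON-GFP had 15 lower and 1 higher, with a median of -1.92 beside 0.04. Over all tested genes 10.9%, 6.87% and 8.20% were lower in these comparisons. Without FPC-LIPA 36, 37 and 39 the count lower against FPC-GFP was 3 and none was higher, and among the 14 libraries it was 1. These fits called 1.22% and 0.706% of all tested genes. Against CON-GFP the count lower was 15 without those 3 libraries and 11 among the 14, where 18.0% and 9.40% of all tested genes were called. In the fit of all 18 libraries the diet comparison had 5 lower, where 9.04% of all tested genes were called.

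**Figure D5:**
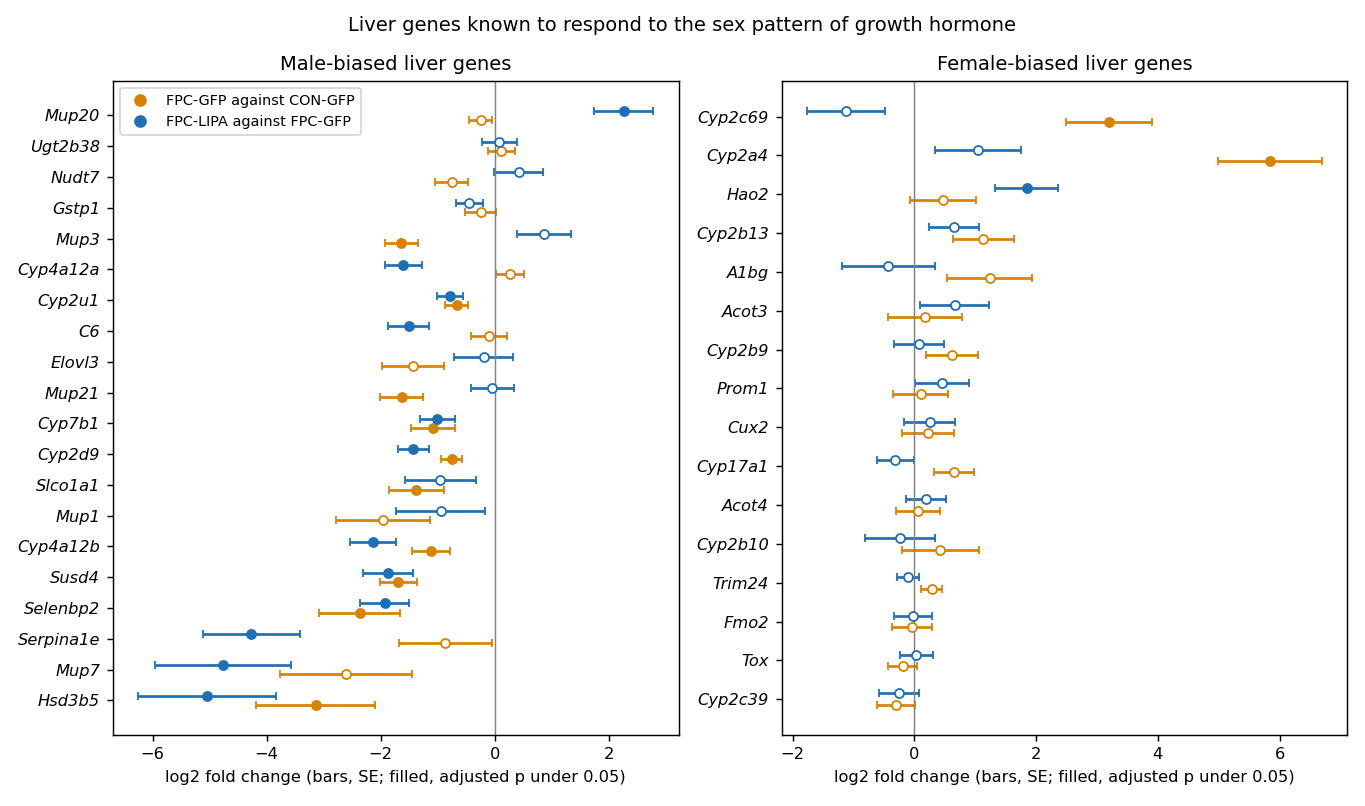
Log2 fold change (points, with SE as bars) of male-biased (left) and female-biased (right) liver genes in FPC-GFP against CON-GFP and FPC-LIPA against FPC-GFP, where filled points have an adjusted p under 0.05 in edgeR's quasi-likelihood test. Most filled points at the left are below 0, apart from Mup20 with LIPA, and the filled points at the right are those of Cyp2c69, Cyp2a4 and Hao2, above 0.

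Hsd3b5, a male-specific steroid dehydrogenase, had 170 ± 91.3 CPM in CON-GFP, 19.0 ± 41.3 in FPC-GFP and 0.557 ± 0.154 in FPC-LIPA (SD, n = 6). A single FPC-GFP mouse set the group's mean, since the FPC-GFP mice ran from 0.491 to 103 CPM while the CON-GFP mice ran from 92.0 to 346. It fell by 3.14 on the diet (SE 1.04, adjusted p = 0.0401), fell by 5.04 from FPC-GFP to FPC-LIPA (SE 1.21, adjusted p = 0.018) and fell by 8.19 from CON-GFP to FPC-LIPA (SE 0.40, adjusted p = 2.79e-08) in edgeR's quasi-likelihood test. Selenbp2, a selenium-binding protein, fell by 2.37 on the diet (SE 0.71, adjusted p = 0.0255) and fell by 1.93 between the FPC groups (SE 0.43, adjusted p = 0.0148). Its CON-GFP mice were spread widely, from 20.7 to 704 CPM (233 ± 253, SD, n = 6), and overlapped the FPC-GFP mice at 14.3 to 88.0. The major urinary protein genes share much of their sequence, so their counts are uncertain. Of these, Mup7 fell by 4.77 from FPC-GFP to FPC-LIPA (SE 1.19, adjusted p = 0.0195), Mup3 fell by 1.64 on the diet (SE 0.29, adjusted p = 0.00152), and Mup20 rose by 2.26 in FPC-LIPA against FPC-GFP (SE 0.52, adjusted p = 0.0159), a call lost without FPC-LIPA 36, 37 and 39. For Mup7 the FPC-GFP mice ran from 30.6 to 3759 CPM (782 ± 1472, SD, n = 6) and overlapped the FPC-LIPA mice at 6.66 to 61.8.

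Of 24 female-biased genes, 16 were tested on the diet and with LIPA and 15 in FPC-LIPA against CON-GFP. In order, 2, 1 and 3 of them rose, where 12.9%, 14.4% and 14.7% of all tested genes were called higher, and none fell, with medians of 0.36, 0.05 and 0.45. Cyp2a4, a female-biased cytochrome P450 with close paralogs, had 2.25 ± 2.51 CPM in CON-GFP, 128 ± 119 in FPC-GFP and 249.2 ± 220 in FPC-LIPA (SD, n = 6). It rose by 5.84 on the diet (SE 0.85, adjusted p = 0.000474) and by 6.84 in FPC-LIPA against CON-GFP (SE 0.85, adjusted p = 0.00011) in edgeR's quasi-likelihood test. Cyp2c69 rose by 3.20 on the diet (SE 0.70, adjusted p = 0.00543), from 0.226 to 2.05 CPM, and Hao2, a hydroxy acid oxidase, rose by 1.85 in FPC-LIPA against FPC-GFP (SE 0.51, adjusted p = 0.0264). Without FPC-LIPA 36, 37 and 39 no female-biased gene was called between the FPC groups, where 1.22% of all tested genes were. Acot4, the most abundant of the list, had 134, 139 and 151 CPM in the 3 groups in order and passed in no comparison.

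The transcription factors known to set or carry these sex-biased programmes in liver gave 1 lower of 12 on the diet, 6 lower in FPC-LIPA against FPC-GFP and 4 lower in FPC-LIPA against CON-GFP, and none higher. Over all tested genes 10.9%, 6.87% and 8.20% were lower in these comparisons. Nr3c1, the glucocorticoid receptor, fell by 0.53 on the diet (SE 0.17, adjusted p = 0.0325), a call lost with all 18 libraries in one fit. Onecut1 fell by 2.38 (SE 0.73, adjusted p = 0.0359), Hnf4a fell by 0.98 (SE 0.32, adjusted p = 0.0425) and Cebpa fell by 0.88 (SE 0.20, adjusted p = 0.0159) from FPC-GFP to FPC-LIPA in edgeR's quasi-likelihood test. Foxo1, which insulin signalling restrains, fell by 1.19 in FPC-LIPA against CON-GFP (SE 0.25, adjusted p = 0.00398). Without FPC-LIPA 36, 37 and 39, and among the 14 libraries, 0 of 12 were called between the FPC groups in edgeR's quasi-likelihood test. These fits called 1.22% and 0.706% of all tested genes. Against CON-GFP each of the 2 settings gave 2 lower and none higher, where 18.0% and 9.40% of all tested genes were called. With library size alone the diet comparison had 2 higher and none lower, where 28.5% of all tested genes were called.

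Markers of other cells moved with the groups. Over all tested genes 12.9% were called higher and 10.9% lower on the diet. For FPC-LIPA these shares were 14.4% and 6.87% against FPC-GFP, and 14.7% and 8.20% against CON-GFP. On the diet, 7 of 10 leukocyte markers and 7 of 8 Kupffer cell markers rose, and their summed levels ran from 104 to 142 and from 135 to 275 CPM in CON-GFP, from 165 to 302 and from 364 to 624 in FPC-GFP, and from 261 to 412 and from 468 to 926 in FPC-LIPA. None of these markers was at 0 in every library. Of 9 hepatocyte markers found, 2 fell on the diet, 1 in FPC-LIPA against FPC-GFP and 4 in FPC-LIPA against CON-GFP, with summed levels from 71260 to 103836 CPM in CON-GFP, from 61456 to 87703 in FPC-GFP and from 51578 to 77922 in FPC-LIPA. The 1 hepatocyte marker that fell between the FPC groups was Hnf4a, which is also in the list of transcription factors above, so this is the same result. In FPC-LIPA against FPC-GFP, 5 of 10 leukocyte markers and 3 of 8 Kupffer cell markers rose, and 1 Kupffer cell marker fell. Of 11 stellate and endothelial markers, 4 rose on the diet and 3 in FPC-LIPA against FPC-GFP. Lymphocyte markers had none higher and 1 lower of 8 tested on the diet, and 4 of 11 tested rose in FPC-LIPA against FPC-GFP. With the 3 libraries with a high ribosomal share left out, 4 leukocyte markers and 1 Kupffer cell marker rose between the FPC groups, and no lymphocyte, stellate, endothelial or hepatocyte marker was called in edgeR's quasi-likelihood test. Among the 14 libraries 3 leukocyte markers rose there and no marker of the other lists was called. The fit without the 3 libraries called 1.22% of all tested genes there, and that of the 14 libraries 0.706%. Ribosomal protein genes gave 65 of 83 lower on the diet and 67 of 83 higher in FPC-LIPA against FPC-GFP. The part of these cells and of the ribosomal share in the levels of the 10 genes was not tested.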

How the data were processed

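The deposited values are raw counts per gene for 55487 genes. To make them, the authors used Trimmomatic for trimming, HISAT2 (version 2.1.0 in the submitters' processing notes) for alignment to GRCm38, and featureCounts. The annotation version and strand setting are not given in the sources used here, and of the library kits named, 1 keeps strand and 1 does not. Columns were matched to mice by condition and mouse number, and 5 columns of other vectors were not used.

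The 12 libraries of a comparison were filtered with filterByExpr, scaled by TMM and tested with the quasi-likelihood test of edgeR 4.0.16 in R 4.3.3, with Benjamini-Hochberg adjustment over all tested genes. A gene was called at an adjusted p under 0.05, and the SE is the log2 fold change's size divided by the square root of F. CPM were scaled by TMM over 18 libraries, and log2 CPM had a prior count of 2. Exon lengths and positions came from GENCODE M21. Alternatives were DESeq2 1.42.0 size factors and its Wald test, upper-quartile factors, library size alone, other filters and thresholds, all 18 libraries in one fit, sample sheet numbers 55 to 68, removal of the gene length trend, and libraries left out. Those for gene lists and pairs of genes were chosen after seeing the data. The fits were tested on simulated data. Libraries of a group differed by far more than counting noise (chi-square per degree of freedom from 15.4 to 591), so errors are over mice. Nothing in the labels says that mice shared a litter or cage.

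The 10 genes and the gene lists were chosen with earlier results of these data known. Beyond the 10, the genes named are, per pathway list, the 2 with the highest mean CPM and the 2 with the largest called change in each comparison, and for each called gene the 3 most like it. A gene that this rule names is not reported here. Of the ribosomal and cell marker lists only counts and summed levels are given, apart from Hnf4a, which is in another list as well. Tables and figures were made with Python 3.11.15, pandas 2.3.3, numpy 2.4.6, scipy 1.17.1 and matplotlib 3.10.9.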

Additional observations from a re-analysis of the deposited data

Results flagged for a closer look

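Ghr in CON-GFP 2 was 1179 CPM, far from the other 5 CON-GFP mice, which had 569 to 726 CPM. The gap to the next mouse was 0.665 of the group's whole range, above Dixon's critical value for 6 samples. It was the only one found among 30 combinations of gene and group, and chance alone marks about 1 in 20. Without CON-GFP 2, Ghr stayed lower in FPC-GFP at an adjusted p under 0.05 in edgeR's quasi-likelihood test.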

How the results depend on the processing

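Over 21 alternatives of the diet comparison, Ghr ran from -1.15 to -0.84 and Igf1 from -1.30 to -1.01 on the log2 scale, and both were called in all 21, while Igfals was called in 12 and Igfbp1 in 20. In FPC-LIPA against CON-GFP, Igf1 and Igfals were called in all 22. The count of called genes on the diet was 2 with all 18 libraries in one fit and at an adjusted p under 0.01, and the count also changed at least 2-fold was 1 with library size alone and 4 with a fold of 1.5. Leaving out 1 mouse gave 3 to 4 called on the diet, 0 to 2 in FPC-LIPA against FPC-GFP and 2 to 3 in FPC-LIPA against CON-GFP. The count of 2 between the FPC groups came without FPC-LIPA 33, where 38.0% of all tested genes were called. Igfals lost its diet call with library size alone (adjusted p = 0.0766), in the shared fit (0.114) and without any of CON-GFP 1, 3 and 8 and FPC-GFP 11, 12 and 19 in edgeR's quasi-likelihood test. Library size alone moved the median of all genes by 0.20 on the diet and by -0.13 in FPC-LIPA against FPC-GFP.

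Directions turned for genes that were not called, and the cause was not tested. On the diet, Stat5a became 0.16 and Socs2 0.19 with library size alone, Socs2 became 0.00341 with upper-quartile factors and Cish became -0.26 among sheet numbers 55 to 68. Leaving out 1 mouse, Stat5a ran from -0.12 to 0.092, Socs2 from -0.24 to 0.15, Cish from -0.15 to 0.50 and Bcl6 from -0.13 to 0.91. In FPC-LIPA against FPC-GFP without FPC-LIPA 36, 37 and 39, Ghr became -0.0078, Stat5a 0.036 and Igf1 -0.10, and Igf1 became -0.082 with library size alone and -0.00897 among sheet numbers 55 to 68, and ran from -0.055 to 0.15 with 1 mouse left out. In FPC-LIPA against CON-GFP, Stat5a became 0.0098 and Bcl6 0.065 without those 3 mice, Bcl6 became 0.15 among sheet numbers 55 to 68, and Igfbp2 became -0.038 with no filter and -0.11 without the length trend. With 1 mouse left out, Bcl6 ran from -0.54 to 0.33 and Igfbp2 from -0.13 to 0.21. No paired analysis was possible because the groups share no mouse numbers.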
